A study of Mus musculus with 5 samples.

Results

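CA3 pyramidal neuron nuclei were gated by marker genes in single-nucleus RNA libraries of the mouse dentate gyrus. In all, 5264 of them were described here, out of 32576 barcodes in 3 nuclei libraries and 95918 barcodes in all 5 libraries of the series. A nucleus was taken as CA3 when it held 2000 or more unique molecular identifiers (UMIs, each standing for 1 captured RNA molecule), at most 5% mitochondrially encoded UMIs, RNA of at least 3 of the 6 genes Hs3st4, Nectin3, Cpne4, Iyd, Trps1 and Homer3, and RNA of the vesicular glutamate transporter Slc17a7. It further held no RNA of Prox1, Calb2 or Drd2, at most 1 UMI of Gad1 and Gad2 together, and fewer than 3 of the 5 CA2 genes Rgs14, Amigo2, Map3k15, Necab2 and Cacng5. The members were thus selected on the measured UMIs of those genes, whose levels are given only as a description.

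The libraries were a WT-naive library from untrained wild-type mice, a WT-CFC library from wild-type mice 14 days after contextual fear conditioning (CFC, a foot shock paired with a place), and a library labelled KO-CFC, called the KO-CFC-labelled library below, from conditioned mice, also at 14 days, whose title names a knockout of Csf2rb2 and whose genotype field reads Csf2rb3-KO. Each library stands for a group of 10 mice and holds nuclei from frozen dentate gyrus, so with 1 library per group the groups could not be tested against each other, and the intervals given hold counting error only. The series also has 2 libraries of dissociated cells, not analysed here. The promoter, the cell type and the part of the gene affected by the knockout are not given in the sources used here. A lower level summed over CA3 nuclei can come from fewer nuclei of a kind or from less RNA in each, and the 2 cannot be told apart from the sums.

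CA3 pyramidal neurons are the glutamatergic neurons that receive the mossy fibre axons of dentate granule neurons on large proximal spines, and that excite each other through recurrent collaterals. Their mossy fibre synapses depend on kainate receptors, and the recurrent network is classically linked to the completion of stored memories from partial cues. In a dissection of the dentate gyrus the CA3 neurons nearest the hilus lie between the granule cell blades and are taken along with granule and mossy neurons.

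The WT-naive library gave 2485 CA3 nuclei, the WT-CFC library 1850 and the KO-CFC-labelled library 929. Among barcodes with 2000 or more UMIs and at most 5% mitochondrial UMIs these were 34.2% (exact Clopper-Pearson 95% interval 33.1 to 35.3), 26.8% (25.8 to 27.9) and 18.2% (17.2 to 19.3). Of all deposited barcodes they were 22.7%, 14.0% and 11.1%. The order of the libraries was the same with either denominator. The share also depends on the dissection, on depth and on the levels of the 6 selecting markers, whose part was not tested. With every other condition met, 285 KO-CFC-labelled nuclei held 3 of the 6 markers and 26 held all 6, against 314 and 237 in WT-naive. The CA3 nuclei held a median of 9346, 10297.5 and 8107 UMIs, and 24584530, 20362919 and 8273372 UMIs in sum. For comparison the granule gate took 398, 483 and 433 nuclei and the mossy gate 220, 331 and 92, while the CA2 gate took 0, 4 and 1 and was not used further. The granule gate needed RNA of Prox1, Slc17a7 and at least 2 of Dsp, C1ql2, Plk5, Stxbp6, Glis3 and Rfx3. It also needed fewer than 3 of the CA3 markers, among other limits. The gates differ in strictness, so these counts do not rank the classes by their abundance in the tissue. Between 25 and 32 barcodes were shared by each pair of libraries, and 4 barcodes were CA3 nuclei in both the WT-CFC and the WT-naive library.

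Csf2rb2, a beta chain of the interleukin-3 receptor and the gene named in the knockout title, was detected in every library. It gave 929 UMIs in the WT-naive library, 1208 in WT-CFC and 368 in the KO-CFC-labelled library, or 14.4, 17.6 and 9.67 CPM (the class or library sum scaled to a common total). In CA3 nuclei it stood at 10.5, 8.45 and 6.89 CPM from 258, 172 and 57 UMIs. RNA of the gene was therefore present in the KO-CFC-labelled library, though lower; a 3' tag outside a deleted part would check nothing, and where the deletion lies was not tested. Mossy nuclei, whose gate uses this gene, held it at 128, 127 and 124 CPM, and granule nuclei at 2.64, 0.982 and 2.19. Il3, the ligand, had no UMI in CA3 nuclei of any library, which by a limit of 3 counts allows up to 0.122, 0.147 and 0.363 CPM. The alpha chain Il3ra gave 14, 11 and 8 UMIs in CA3 nuclei and the common beta chain Csf2rb 27, 11 and 8, too few to compare.

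**Figure D1:**
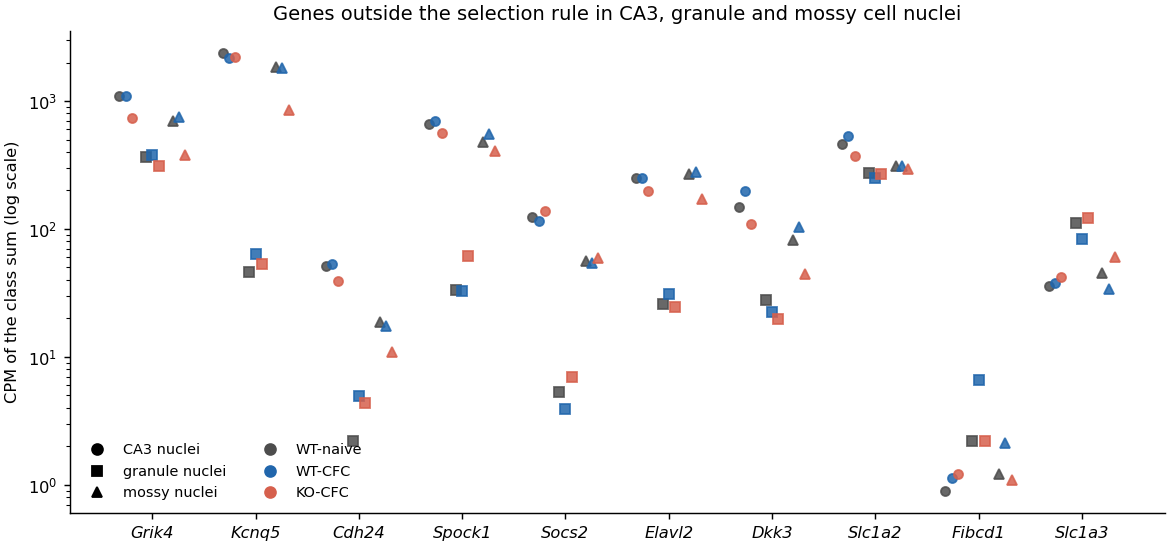
CPM of the class sum (log axis) of 10 genes outside the rule, with 1 point per library (colours) for CA3 (circles), granule (squares) and mossy (triangles) nuclei and no error bars. Grik4 stood at 739 to 1103 CPM in CA3 nuclei against 309 to 376 in granule nuclei, and the CA1 gene Fibcd1 lay at the bottom of the axis.

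Genes that mark CA3 but were not used by the rule were high in these nuclei. Kcnq5, a subunit of the M-type potassium channel, stood at 2368 CPM in the WT-naive, 2174 in the WT-CFC and 2198 in the KO-CFC-labelled library, against 46.3 to 63.5 in granule nuclei. Grik4, the high-affinity kainate receptor subunit of mossy fibre synapses, stood at 1097, 1103 and 739 CPM, against 368, 376 and 309 in granule nuclei. Both genes were above granule nuclei in each library, and Kcnq5 was nearer to mossy nuclei, with 1844, 1799 and 844 CPM. Summed over 14 CA3 genes outside the rule, CA3 nuclei held 5421, 5400 and 4783 CPM, granule nuclei 943, 903 and 1035, and mossy nuclei 3988, 4106 and 2683.

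Markers of other classes were low for some lists and not for others. The 8 CA1 markers summed to 565, 506 and 590 CPM in CA3 nuclei, against 526, 491 and 537 in granule and 1108, 1084 and 858 in mossy nuclei, with the CA1-defining Fibcd1 and Wfs1 between 0.895 and 3.19 CPM in CA3 nuclei. The 6 oligodendrocyte precursor markers summed to 485, 478 and 346 CPM, against 686, 874 and 445 in granule nuclei. The 10 granule markers summed to 263, 292 and 341 CPM, against 4646, 4718 and 3479 in granule nuclei. Glial markers were low but not equal across libraries: 6 microglia markers summed to 79.2, 77.7 and 139 CPM and 6 oligodendrocyte markers to 75.4, 85.4 and 134, highest in the KO-CFC-labelled library. C1qa, a complement gene of microglia, stood at 4.39, 4.32 and 42.4 CPM in CA3 nuclei of the 3 libraries.

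The marker count separated CA3 nuclei from other neurons only gradually at its edge. With every other condition met, 127 WT-naive nuclei held 2 of the 6 markers and 314 held 3. Kcnq5 stood at 829 CPM in the first group and 1727 in the second, and Rfx3, a transcription factor of granule neurons, at 653 and 140. Median UMIs were 4013 and 6620 in these groups, so nuclei just outside were also shallower.

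The 6 markers of the rule were not detected alike. With each nucleus thinned to 2000 UMIs, Trps1, a zinc-finger transcription factor, was found in 94.9%, 91.6% and 80.1% of CA3 nuclei in WT-naive, WT-CFC and KO-CFC-labelled order, Hs3st4, a heparan sulfate sulfotransferase, in 80.7%, 80.5% and 64.7%, and Cpne4, a copine, in 67.2%, 66.6% and 59.8%. Nectin3, an adhesion molecule of mossy fibre contacts, was found in 37.9%, 39.2% and 25.4%. Homer3, a postsynaptic scaffold, was found in 10.4% to 12.6% and Iyd, a deiodinase, in 2.80% to 7.84%. The KO-CFC-labelled library had the lowest share for each of the 6, and these genes chose the nuclei, so nothing further is read from them.

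CA3 nuclei were set beside granule and mossy nuclei gene by gene. Of 9443 genes with 100 or more counts in CA3 nuclei of each library, 55 (0.582%) were 2-fold or more above both other classes in all 3 libraries. Another view of the same genes is that 521 (5.52%) were so against granule nuclei and 162 (1.72%) against mossy nuclei. These are descriptions, since the classes were gated on counts of the same nuclei. The count of 55 was 17 with nuclei thinned to 2000 UMIs and 126 with the WT libraries only. The number of genes reaching 100 counts changes with both settings, so these counts are not shares of 9443. Fstl5, a secreted follistatin-like protein, stood at 229, 198 and 171 CPM in CA3 nuclei, at 26.9, 20.0 and 14.0 in granule nuclei and at 25.5, 27.3 and 14.1 in mossy nuclei. Cntnap5c, a contactin-associated adhesion protein, stood at 580, 637 and 494 CPM against at most 16.3 in granule and 102 in mossy nuclei. Its relative Cntnap2, which gathers potassium channels along axons, stood at 2378, 2479 and 1618 CPM against at most 201 and 960.

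Other genes named in the same direction included Kcnk4, a leak potassium channel, Cdh24, a cadherin, Fmn1, a formin that builds actin filaments, Pxn, the focal adhesion protein paxillin, Raver2, an RNA-binding protein, Adamtsl1, Cldn22, Efcab3, Popdc3, Sash1 and Ifi203. Of these, Ifi203, of the interferon-inducible p200 family, stood at 57.2, 54.5 and 20.9 CPM and was 2-fold or more above both classes in each library although its level differed between them.

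In the opposite direction, 17 of 1367 genes (1.24%) with 100 or more counts in both other classes stood 2-fold or more below them in all 3 libraries, and among the 9443 genes 403 (4.27%) did so against granule and 208 (2.2%) against mossy nuclei. The count below both classes was 2 with thinned nuclei and 40 with the WT libraries only, again with another number of genes at the minimum. C1ql3, a secreted synapse organiser of the C1q family, stood at 74.2, 64.5 and 123 CPM against 1495, 1621 and 1494 in granule nuclei and 255, 401 and 556 in mossy nuclei. Cntn5, a contactin, stood at 56.8, 39.5 and 34.4 CPM against 673, 631 and 448 in granule nuclei. The others named by the rule were Lrrtm3, Gfra1, Ctnna3, Slc24a4, Ndst4, Ptpro, Cdh13, Tenm1, Limch1, Pcdh15, Scg2, Egfem1 and Sema6d.

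**Figure D2:**
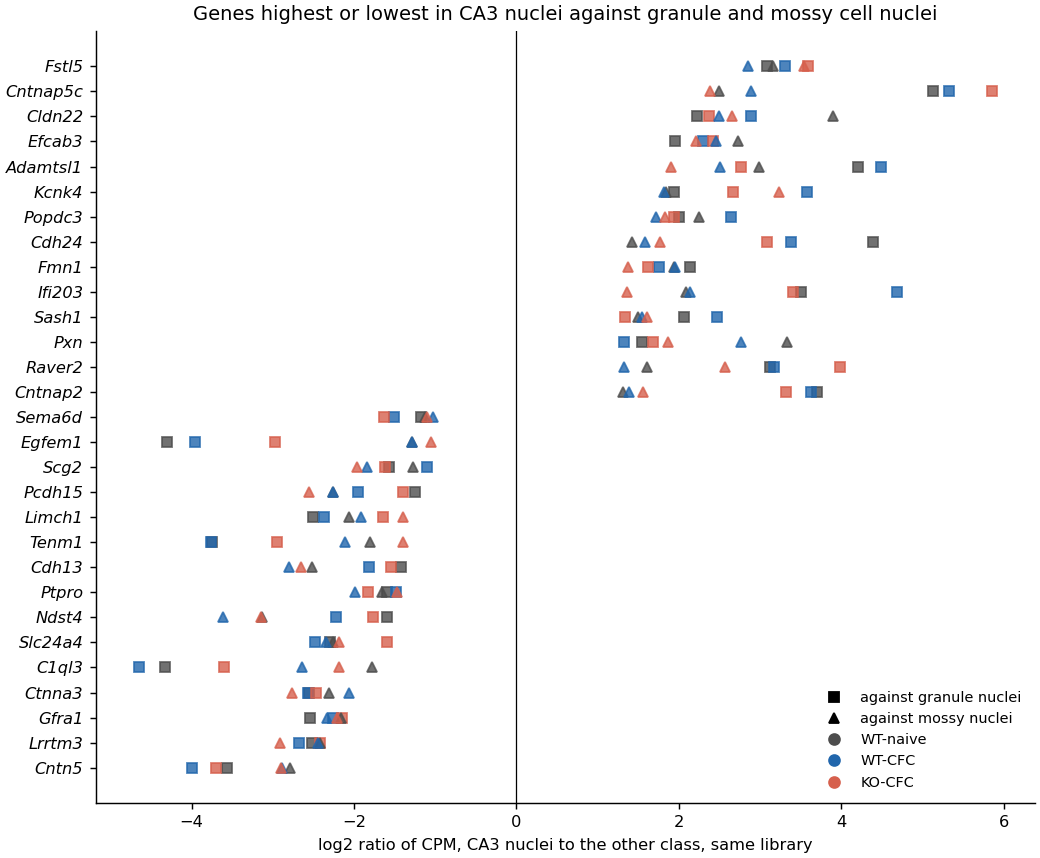
Log2 ratio of the CPM in CA3 nuclei to that in granule (squares) and mossy (triangles) nuclei of the same library (colours), for named genes highest or lowest in CA3 nuclei (rows). Fstl5 and Cntnap5c lay above 2 and C1ql3 below -1 against both classes in every library.

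Receptor and channel lists were counted against granule nuclei, where 5.52% of all genes stood 2-fold or more above and 4.27% below in every library. Of 11 AMPA receptor genes 0 stood above and 2 below, of 5 NMDA receptor genes 0 and 1, and of 7 metabotropic glutamate receptor genes 0 and 1. In the kainate receptor list 3 of 7 genes were 2-fold or more above granule nuclei in every library: Grik4 and the auxiliary subunits Neto1 and Neto2. Neto1 stood at 510, 541 and 375 CPM against 151, 165 and 129. Grik3 was the reverse, at 2.77, 4.03 and 5.44 CPM against 60.3, 70.4 and 26.7. In the GABA-A receptor list 4 of 10 measured genes stood below granule nuclei, among them Gabrb2 at 121, 117 and 95.6 CPM against 308, 334 and 335, while Gabra5, the subunit of extrasynaptic receptors, stood above mossy nuclei at 161, 168 and 172 CPM against 67.6, 76.6 and 58.7.

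Against the same shares of 5.52% and 4.27%, of 21 potassium channel genes 3 stood above granule nuclei (Kcnq5, Kcnc2, a Kv3 channel of fast-spiking neurons, and Kcnn2, a calcium-activated SK channel) and 3 below (Kcnh7, Kcna4 and Kcnn3). Kcnc2 reached 727, 695 and 512 CPM against 21.1, 40.6 and 19.3. In the cAMP list Adcy1, a calmodulin-stimulated adenylyl cyclase, stood at 11.9, 16.6 and 15.4 CPM against 233, 294 and 154, and Pde4d, which degrades cAMP, at 1942, 1890 and 1256 against 156, 226 and 104. The cAMP list thus held 3 genes above and 5 below granule nuclei.

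Guidance genes, the longest of the lists set against granule nuclei, had the most members above them by count. The shorter kainate list had 3 of 7 above. Of 23 measured, 9 were higher in every library (5.52% of all genes were), the Eph receptors Epha3, Epha5, Epha6 and Ephb2, the semaphorin Sema3e, the netrin receptor Unc5c, the Slit receptors Robo1 and Robo2, and Slit2. Epha3 stood at 568, 524 and 395 CPM against 134, 138 and 95.1. Efna5, Sema5a and Sema6d were lower. Among other receptors Chrm3, the M3 muscarinic acetylcholine receptor, stood at 1120, 1028 and 596 CPM against 34.8, 25.5 and 33.8, and Grm8, a presynaptic glutamate receptor, stood below mossy nuclei at 79.2, 55.1 and 36.5 against 801, 763 and 638. No gene of the scaffold (14), heat shock (14), cholesterol (16) or circadian (15) lists was 2-fold apart from granule nuclei in all libraries.

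CA3 nuclei were not uniform among themselves. Each nucleus was thinned to 2000 UMIs, and among 2680 genes with enough UMIs the median ratio of variance to mean was 1.04, 1.04 and 1.05, close to the 1 of counting noise. Malat1 was far above, at 37.1, 27.3 and 41.6, followed by Sgcd, a sarcoglycan, at 3.48, 3.40 and 3.39, and Gabrg3, a GABA-A receptor subunit, at 3.45, 3.25 and 3.25. The ratio can rise with the mean, which was 359, 344 and 442 UMIs per thinned nucleus for Malat1. For Sgcd the mean was 0.909, 0.643 and 0.671, and for Gabrg3 0.175, 0.176 and 0.229. The ratios therefore do not rank these genes by variation relative to their level. Kcnq5, Robo2, Cntn4, Lrrtm4, Galntl6, Trpm3 and Chgb were among the others named.

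**Figure D3:**
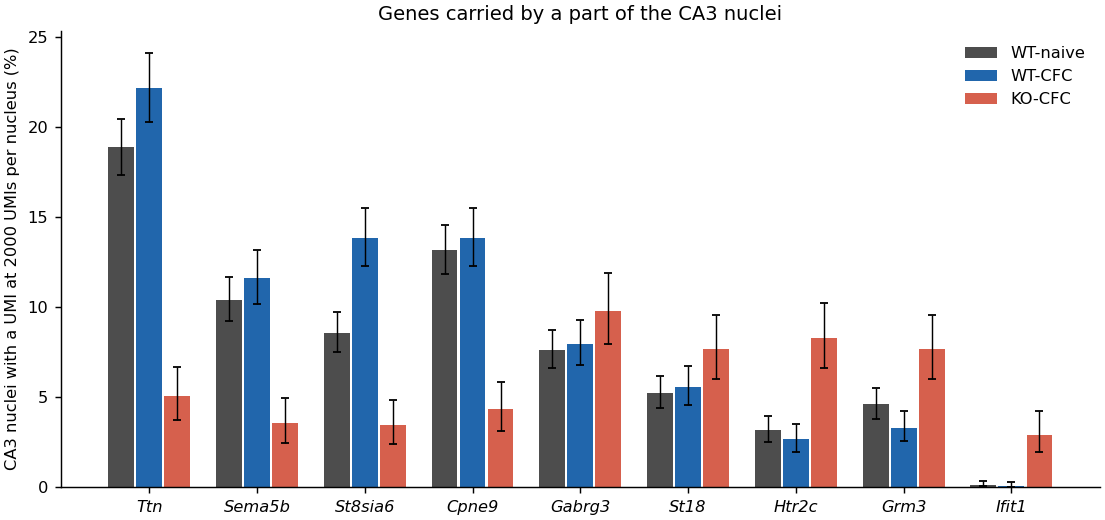
Share (%) of CA3 nuclei with a UMI of each gene after thinning to 2000 UMIs (bars, by library), with exact Clopper-Pearson 95% intervals. The Ttn share was 18.9% in WT-naive nuclei, 22.2% in WT-CFC nuclei and 5.06% in the KO-CFC-labelled library.

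A Gabrg3-positive subset recurred in each library. After thinning, 189 of 2485 WT-naive CA3 nuclei had a Gabrg3 UMI (7.61%, 6.59 to 8.72), 147 of 1850 in WT-CFC (7.95%, 6.75 to 9.27) and 91 of 929 in the KO-CFC-labelled library (9.80%, 7.96 to 11.9). The split, and that on Ttn below, was chosen after values were seen, so what follows is a description. St18, a zinc-finger transcription factor, stood at 403 CPM with and 12.4 without Gabrg3 in WT-naive, a log2 difference of 5.02, 4.58 and 3.95 in the 3 libraries. Sgcd stood at 1921 CPM with and 318 without, and Tafa1, a secreted chemokine-like protein, at 774 with and 2653 without. Kcnq5 was lower with Gabrg3 (1088 against 2474), as were Sema5b and St8sia6.

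Genes in the Gabrg3-positive nuclei also included Erbb4, a neuregulin receptor, Htr4, a serotonin receptor, and Galntl6 and Trpm3, which were higher in each library. The 14 CA3 genes outside the rule summed lower with Gabrg3 in each library, 4015 against 5538, 3965 against 5528 and 3575 against 4918 CPM. Median UMIs were 9336 and 9350.5 in WT-naive. Markers of other classes moved with the split: in WT-naive the CA1 list summed to 1571 against 481 CPM, of which Galntl6 alone gave 1148 and 214, the granule list to 661 against 230 and the interneuron list to 479 against 130. The CA1-defining Fibcd1 was at 0.531 with and 0.925 without, and Wfs1 at 3.72 and 1.85. The part of these other classes in the split was not tested.

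Ttn, which encodes the giant muscle protein titin, divided the nuclei differently. It was found in 469 WT-naive (18.9%), 410 WT-CFC (22.2%) and 47 KO-CFC-labelled nuclei (5.06%, 3.74 to 6.67). In nuclei with a Ttn UMI, Cntn4, an axonal contactin, stood at 418 against 179 CPM in WT-naive, and Sema5b, a guidance semaphorin, at 103 against 45.3. The log2 difference of Sema5b was 1.19, 1.23 and 1.31 in the 3 libraries. Dab1, the reelin signal adaptor, was lower with Ttn (172 against 494 CPM), as were St18, Kit and Etv1. The 6 mossy cell markers were higher with Ttn in each library, 166 against 96.1, 164 against 85.9 and 197 against 68.7 CPM, and Ttn itself stood at 447, 458 and 192 CPM in mossy nuclei; the part of mossy RNA in this split was not tested. Of Gabrg3-positive nuclei, 13.2%, 12.9% and 7.69% held Ttn, against 19.3%, 23.0% and 4.77% of the rest.

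**Figure D4:**
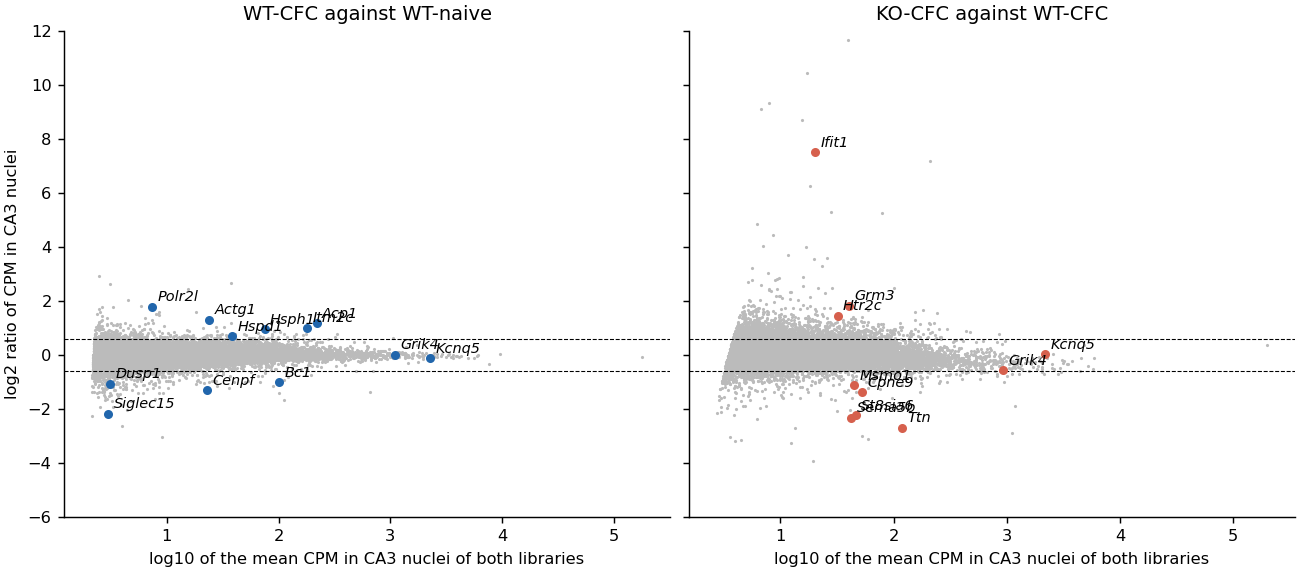
Log2 ratio between libraries (vertical) against log10 of the mean CPM (horizontal) for each gene in CA3 nuclei, 16508 in WT-CFC against WT-naive (left) and 14650 in the KO-CFC-labelled library against WT-CFC (right), with dashed lines at 1.5-fold and some genes of the text labelled. The right panel spreads further, with Ifit1 at 7.51 and Ttn at -2.70.

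The WT-CFC and WT-naive libraries were close in CA3 nuclei. Of 16508 genes with 100 or more counts over both, 356 (2.16%) were 1.5-fold or more higher in WT-CFC and 455 (2.76%) lower. Thinning to 2000 UMIs gave 206 higher and 145 lower, and scaling by the median gene 267 and 545. The minimum of 100 counts was kept after thinning, so fewer genes could be counted and the thinned counts are not shares of 16508. No member was past 1.5-fold among 7 kainate, 11 AMPA, 5 NMDA, 6 metabotropic glutamate and 9 GABA-A receptor genes, 23 axon guidance genes, 18 cadherins, 21 potassium channels, 17 presynaptic and 14 scaffold genes. Grik4, for example, stood at 1103 in WT-CFC and 1097 CPM in WT-naive. The synaptic groups held 0 genes past a fold that 4.91% of all genes passed. That share was not matched to the level of the listed genes. With a minimum of 300 counts, 130 genes were past the fold higher and 135 lower, so many of those past it were low in counts.

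Heat shock genes stood above the rest as a list. All 14 measured members had a positive log2 ratio, with a median of 0.47 against 0.045 for all genes, and 5 were past 1.5-fold. Hsph1, an Hsp110 chaperone, stood at 51.1 CPM in WT-naive nuclei, 99.2 in WT-CFC and 53.7 in the KO-CFC-labelled library, a log2 ratio of 0.96 (95% interval 0.85 to 1.06) of WT-CFC to WT-naive. The KO-CFC-labelled library was thus close to WT-naive for this gene. Hspd1, the mitochondrial chaperonin Hsp60, stood at 29.4, 47.8 and 45.1 CPM, with a ratio of 0.70 (0.56 to 0.84). The other 3 past the fold were Hspa1a, Dnajb1 and Cryab, of which Dnajb1 (0.48) and Hspa1a (0.58) were under the fold when 4 of the 6 markers were required. The same list had a median of 0.23 in granule and 0.61 in mossy nuclei, over 10 measured genes in each.

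The promoter windows of these chaperone genes, from 250 bases before to 50 after each start, were searched for the heat shock element, written as GAA, TTC and GAA with any 2 bases between neighbours, the repeat that heat shock factors bind. RefSeq (build GRCm38.p6) gave windows for 10 of the 14 genes, of which 3 (Hsph1, Hspd1 and Hspe1) hold the motif on either strand, against 198 of all 32851 windows (0.603%). The sequences below are Hsph1 (chr5:149636287-149636586, minus strand) and Hspd1 (chr1:55087883-55088182, minus strand, a window that overlaps the Hspe1 window on the other strand), printed because the 2 genes are those with the largest counts past the fold. The element is in capitals, and a match is a description of the letters only.
Hsph1: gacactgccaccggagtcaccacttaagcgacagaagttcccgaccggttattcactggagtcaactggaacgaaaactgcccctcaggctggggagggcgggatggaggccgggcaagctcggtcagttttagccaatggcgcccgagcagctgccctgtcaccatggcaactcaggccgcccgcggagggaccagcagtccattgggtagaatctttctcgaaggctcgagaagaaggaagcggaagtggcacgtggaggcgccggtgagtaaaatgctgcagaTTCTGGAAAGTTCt
Hspd1: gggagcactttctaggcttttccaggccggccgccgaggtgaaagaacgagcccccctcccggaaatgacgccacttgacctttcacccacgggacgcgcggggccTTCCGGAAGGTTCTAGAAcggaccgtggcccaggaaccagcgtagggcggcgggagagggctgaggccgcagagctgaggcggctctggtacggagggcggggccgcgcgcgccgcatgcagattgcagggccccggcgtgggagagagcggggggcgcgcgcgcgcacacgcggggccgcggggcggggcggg

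Secretory and metabolic genes had smaller ratios. Chgb, the granule protein chromogranin B, stood at 830 CPM in WT-naive nuclei, 1275 in WT-CFC and 739 in the KO-CFC-labelled library. Its WT-CFC to WT-naive ratio was 0.62 (0.59 to 0.65) in CA3 against 0.02 in granule nuclei; scaled by the median gene it was 0.57, under 1.5-fold. Cck, the neuropeptide cholecystokinin, stood at 132, 199 and 132 CPM (0.59, and 0.55 by the same scaling). Both genes were thus highest in the WT-CFC library. Glycolysis genes had a positive ratio in 15 of 16, with a median of 0.27 and none past 1.5-fold, and cholesterol synthesis genes in 14 of 16, with a median of 0.25. Ribosomal protein genes, in 18 of 19, had a median of 0.36, so ribosomal protein RNA lay in the same direction, and its part in the lists above was not tested.

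The named genes furthest apart were mostly low in level. Among the higher ones, Acp1, a small phosphatase, reached 304 CPM in WT-CFC, where WT-naive had 134, a ratio of 1.18 (1.12 to 1.24), and Itm2c, a membrane protein of neurons, at 242 against 120 (1.01, 0.95 to 1.08). Polr2l, a shared subunit of RNA polymerases, stood at 11.5 against 3.34. Each was also higher in mossy nuclei and by whole-library counts. Among the lower ones, Cenpf, a kinetochore protein, stood at 13.2 against 32.9 CPM (-1.32), Bc1, a small dendritic non-coding RNA, at 67.0 against 136 (-1.02, -1.11 to -0.93) and Cd40, a TNF receptor family member, at 7.46 against 15.2 (-1.02). Cenpf, Bc1 and Cd40 were also lower in mossy nuclei and by whole-library counts, while Cd40 was higher in granule nuclei (0.71).

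Activity-regulated and hormone-regulated genes were measured as well. Of 16 immediate early genes, Jun, a subunit of the AP-1 transcription factor, was past 1.5-fold higher in WT-CFC, at 8.83 and 13.8 CPM in WT-naive and WT-CFC, though its ratio was 0.18 with nuclei thinned to 2000 UMIs. Ier2 and Dusp1 were past it lower, Dusp1 at 4.27 and 2.01, and Ier2 was under it (-0.52) with 1 UMI of Prox1, Calb2 and Drd2 allowed. Arc, a regulator of AMPA receptor trafficking, stood at 15.5 and 11.6 CPM, and Bdnf, the brain-derived neurotrophic factor, at 66.3 and 59.7, both under the fold. Of 11 glucocorticoid-responsive genes none was past it, with a median of 0.17, and Fkbp5, a co-chaperone of the glucocorticoid receptor, stood at 34.8 and 39.1 CPM. Of 15 clock genes only Rorb was, at 5.04 and 8.40 CPM, with a ratio of 0.73 that was 0.26 without nuclei holding granule RNA. Among 12 mossy fibre synapse organisers, 12 neurexins and partners, 14 sodium, calcium and HCN channels, 18 calcium and kinase genes, 16 cAMP genes, 7 neurotrophin genes and 6 perineuronal net genes there were 0.

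**Figure D5:**
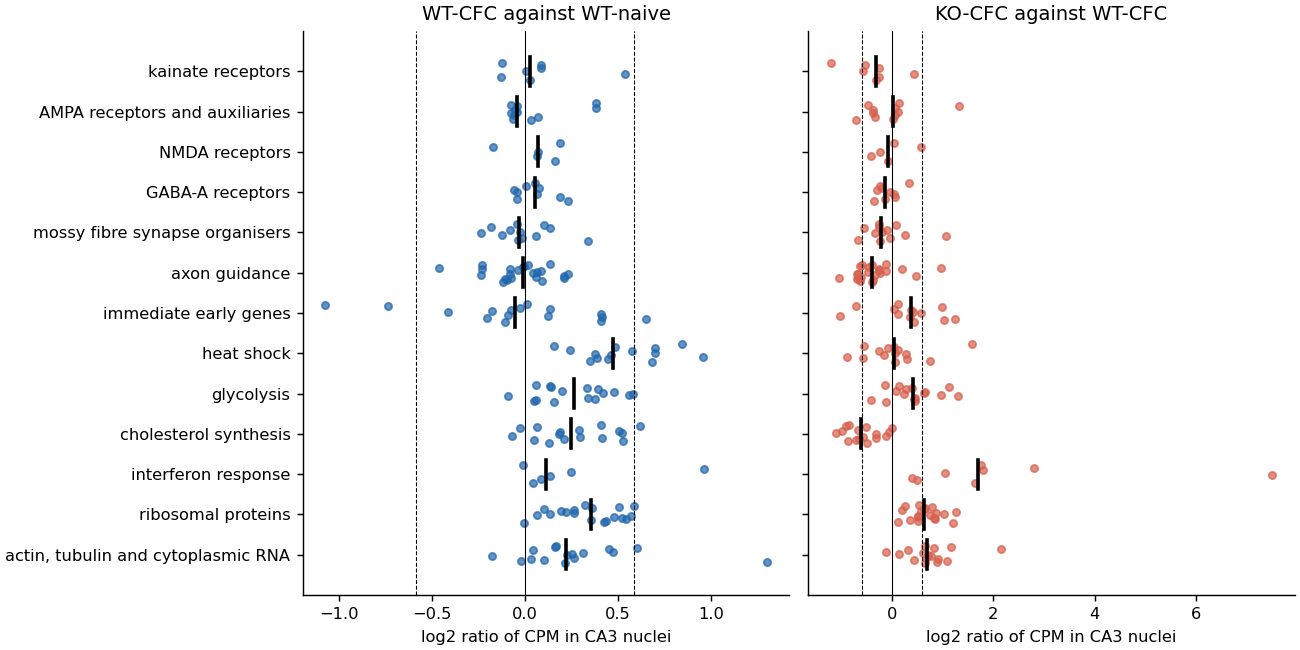
Log2 ratio between libraries in CA3 nuclei for each measured gene (points) of 13 lists (rows), with the list median (black bar) and 1.5-fold (dashed lines); the axes of the panels differ in range. Against WT-CFC the KO-CFC-labelled library (right) had a median of -0.61 for cholesterol synthesis and 1.70 for the interferon list.

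The library labelled KO-CFC differed from WT-CFC in many more genes. Of 14650 genes, 1743 (11.9%) were 1.5-fold or more higher and 662 (4.52%) lower. This comparison shares the WT-CFC library with the one above. RNA of ribosomal proteins and the cytoplasm was higher as well: 10 of 19 ribosomal protein genes were past the fold, median 0.63, and 12 of 16 cytoplasmic genes, median 0.69, and the summed ribosomal level was 936, 1188 and 1807 CPM in the 3 libraries. Granule nuclei had medians of 0.92 and 1.15 for these lists. Their part in the genes below was not tested.

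The lowest named genes included the Ttn group. Ttn stood at 174 CPM in WT-naive nuclei, 205 in WT-CFC and 31.7 in the KO-CFC-labelled library, a ratio of -2.70 (-2.88 to -2.52) to WT-CFC. In granule nuclei the ratio was -0.12, and in mossy nuclei -1.25, where levels were 447, 458 and 192 CPM. Sema5b stood at 56.7, 70.4 and 13.9 CPM (-2.34, -2.63 to -2.07), and St8sia6, a sialyltransferase, at 54.2, 76.6 and 16.2 (-2.24). In mossy nuclei St8sia6 had -2.84, from 3 UMIs in the KO-CFC-labelled library, so its lower level was not limited to CA3 nuclei. Sema5b had -0.83 in granule and -0.25 in mossy nuclei. These genes were also high in the Ttn-positive nuclei, and the share of nuclei with a UMI was 10.4%, 11.6% and 3.55% for Sema5b and 8.57%, 13.8% and 3.44% for St8sia6. Cpne9, a copine, was at 75.4 in WT-CFC and 28.9 in the KO-CFC-labelled library, and Ifi203 at 54.5 and 20.9.

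Cholesterol synthesis was the list with no positive ratio. None of its 16 genes had a positive ratio and 8 were past 1.5-fold lower, where 4.52% of all genes were, with a median of -0.61. Granule nuclei had a median of -0.22 over 6 measured genes and mossy nuclei -0.34 over 10. These medians cover unlike sets of genes. The 8 genes in CA3 nuclei included Hmgcs1, Msmo1, Scd2, Fasn, Idi1 and Fdft1, of which Idi1 (-0.56) and Fdft1 (-0.58) were under the fold when 4 of the 6 markers were required. Msmo1, a sterol methyl oxidase, stood at 42.5, 61.0 and 28.2 CPM, with a ratio of -1.11 (-1.32 to -0.91). Hmgcs1, which makes HMG-CoA for the mevalonate pathway, stood at 26.1, 37.7 and 20.5 CPM (-0.87, -1.12 to -0.63), and Scd2, a fatty acid desaturase, at 45.7, 70.1 and 37.3 (-0.91). WT-CFC was the highest library for each, and against WT-naive the median was -0.35 with 2 genes past the fold, Idi1 and Msmo1. Idi1 was under it (-0.52) with 4 of the 6 markers, and Msmo1 (-0.50) without nuclei holding granule RNA.

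The Hmgcs1 window is shown because its sterol element TCACNCCAC, the site that sterol regulatory element-binding proteins recognise, is the only match among the 9 of 16 genes that RefSeq's table holds; 408 of 32851 windows (1.24%) hold it on either strand. It lies at chr13:119690101-119690400 on the plus strand (build GRCm38.p6), with the element in capitals.
Hmgcs1: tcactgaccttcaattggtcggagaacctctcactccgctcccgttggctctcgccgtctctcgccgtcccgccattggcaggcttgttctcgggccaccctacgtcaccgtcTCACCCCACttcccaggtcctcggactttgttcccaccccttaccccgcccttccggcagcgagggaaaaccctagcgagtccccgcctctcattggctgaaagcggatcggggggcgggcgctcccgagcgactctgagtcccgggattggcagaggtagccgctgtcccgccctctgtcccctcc

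Guidance genes were past the fold lower in 9 of 23, where 4.52% of all genes were, with a median of -0.41. They were the Eph receptors Epha4, Epha6, Epha7, Ephb1 and Ephb2, the semaphorins Sema5a and Sema6d, and the receptors Robo1 and Robo2. Ephb1 stood at 204, 235 and 114 CPM (-1.04) and Robo1 at 772, 769 and 498 (-0.63). Without nuclei holding glial or interneuron RNA, Robo1 (-0.51) and Robo2 (-0.56) were under the fold, and Ephb2 was (-0.52) without the 8% with most UMIs. Unc5d, a netrin receptor, was the 1 gene past the fold in the other direction, at 95.8, 69.6 and 137. Granule and mossy nuclei had medians of -0.40 and -0.71, so lower guidance genes were not limited to CA3 nuclei in this library.

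Other synaptic lists held few members past the fold, where 11.9% of all genes were higher and 4.52% lower. There were 0 in 5 NMDA receptor, 9 GABA-A receptor, 14 scaffold, 10 glucocorticoid and 6 perineuronal net genes. Of 21 potassium channels Kcnn3 and Kcnt2 were lower, of 14 sodium, calcium and HCN channels Cacna1a and Cacna1e, of 16 cAMP genes Pde4d, and of 17 presynaptic genes Syt7, a calcium sensor of asynchronous release. Cacna1a (-0.58), Cacna1e (-0.57) and Syt7 (-0.56) were under the fold with nuclei thinned to 2000 UMIs, and Pde4d (-0.58) with 4 of the 6 markers. Of 18 calcium and kinase genes Itpr1, the inositol trisphosphate receptor of intracellular stores, stood at 71.5, 87.8 and 45.6 CPM (-0.94, -1.11 to -0.78) and Prkcb was lower too, while Ryr1 was higher. Nrxn3, a presynaptic neurexin, stood at 5724, 5340 and 3491 CPM (-0.61) and the calsyntenin Clstn2 was lower as well. Granule nuclei had -1.09 for Itpr1 and -0.37 for Nrxn3.

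Early response, peptide and metabolic genes went in both directions. Junb, an AP-1 subunit, stood at 18.0, 15.6 and 36.7 CPM (1.23), with 18.5, 13.7 and 44.3 in granule nuclei, and Jun at 8.83, 13.8 and 28.2, with 78.8, 80.8 and 127 in granule nuclei. Egr1, a zinc-finger transcription factor, was lower, at 5.33, 5.79 and 2.78 CPM from 131, 118 and 23 UMIs. Chrm3 stood at -0.79 and Chgb was lower too, while Scg2, Npy5r, Htr2c and Htr4 were higher; Scg2 was at 0.36 without nuclei holding glial or interneuron RNA. Of 16 glycolysis genes 5 were higher (Aldoc, Gapdh, Pgam1, Eno1 and Ldhb, of which Eno1 was at 0.49 after thinning and Pgam1 at 0.58 with median scaling), with a median of 0.41 against 0.37 in granule and 0.65 in mossy nuclei. Heat shock genes had a median of 0.05, with Hspa1b and Cryab higher and Hsph1 lower; Hspa1b was at 0.43 with 1 UMI of Prox1, Calb2 and Drd2 allowed.

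Receptor genes were mixed. Gria1, an AMPA receptor subunit, stood at 2560, 2619 and 1605 CPM (-0.71) and Neto2 at 90.5, 83.1 and 35.8 (-1.21). Htr2c, a serotonin receptor, was higher, at 20.1, 17.2 and 47.0 CPM (1.45, 1.24 to 1.66), as it was in granule nuclei at 16.3, 16.0 and 44.3. Grm3, a metabotropic glutamate receptor, was at 22.2, 17.7 and 62.6. It is more abundant in astrocyte nuclei, at 651, 617 and 314 CPM, and the part of astrocyte RNA was not tested. Several other genes higher in CA3 nuclei of this library are abundant in granule nuclei: C1ql2, a mossy fibre synapse organiser, stood at 3.58, 4.57 and 27.0 CPM in CA3 nuclei and at 58.6, 102 and 211 in granule nuclei, and the part of granule RNA was not tested.

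The highest named genes mark immune cells. Iglc1, an immunoglobulin light chain constant region, had 0 UMIs in the CA3 nuclei of WT-naive and WT-CFC and 662 in the KO-CFC-labelled library, or 80.0 CPM. Against the 3-count floor per library this was at least 543-fold higher than WT-CFC. These UMIs lay in 286 nuclei, with 289 of them in 1 nucleus. In the same library Iglc1 stood at 71.4 CPM in granule, 43.4 in mossy and 246 in microglia nuclei. S100a9, a neutrophil calcium-binding protein, gave 131 UMIs (15.8 CPM) against 0. Both were thus present in every class of that library, where their source was not tested.

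The interferon list had 8 measured members in this comparison, all with a positive ratio and 6 past 1.5-fold, median 1.70. With nuclei thinned to 2000 UMIs, under the same count minimum, the list median was 0.434. Thinned sums are smaller, so fewer members can reach that minimum. The 2 medians thus cover unlike sets of genes and do not show how the ratios change with depth. Ifit1, which binds foreign RNA, stood at 0.407 CPM in WT-naive nuclei, 0.196 in WT-CFC and 40.2 in the KO-CFC-labelled library, a ratio of 7.51 (6.31 to 9.56). B2m, the light chain of class I antigen complexes, stood at 4.23, 8.25 and 28.6 CPM, and Bst2, the restriction factor tetherin, at 1.42, 2.31 and 16.3. For each gene the KO-CFC-labelled library was the highest, and for B2m WT-CFC also lay above WT-naive. Granule nuclei had a median of 1.56 and mossy nuclei 0.931, each over 2 measured genes with 1 past the fold, too few to stand for the list.

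Most of the Ifit1 UMIs came from few nuclei. In the KO-CFC-labelled library 333 UMIs lay in 53 nuclei, and 22 nuclei with 5 or more held 279 of them, at most 32 in 1 nucleus. These 22 were 2.37% (1.49 to 3.56) of CA3 nuclei there, and 0 of 2485 WT-naive and 0 of 1850 WT-CFC nuclei reached 5 UMIs, which by the 3-count limit allows shares of up to 0.121% and 0.162%. Of 433 granule nuclei in the same library 0 did (up to 0.693% by that limit), of 92 mossy nuclei 1 (1.09%, 0.0275 to 5.91) and of 338 microglia nuclei 2 (0.592%, 0.0717 to 2.12). A cut in raw UMIs depends on depth, and median UMIs there were 8107 in CA3, 4407 in granule, 9048 in mossy and 1468.5 in microglia nuclei. Summed Ifit1 was 40.2, 6.57, 11.9 and 58.8 CPM in the same order. The classes were not compared at equal depth for this cut. The cut of 5 was chosen after values were seen, and the 22 are a description with no test.

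The 22 nuclei carried a broader set of antiviral and interferon genes. Of 2030 genes with 15 or more UMIs in them, 19 besides Ifit1 stood 4-fold or more above the other 907 CA3 nuclei of the library. Of these 19, 4 were without a name. In the other direction 1 gene stood 4-fold or more below. The minimum for the higher genes was set in the 22 nuclei, themselves picked on Ifit1, so genes high there were favoured. Mx2, a GTPase that blocks viruses, stood at 211 against 1.23 CPM and was found in 15 of the 22. Rnf213, a ubiquitin ligase, stood at 364 against 12.6 and was found in 19. Eif2ak2, the RNA-activated kinase PKR, stood at 159 against 4.45, Rigi, an RNA sensor, at 199 against 5.80, Isg15, a ubiquitin-like modifier, at 108 against 5.43, and Stat2 at 290 against 29.5. Robo3, a guidance receptor, was also in the set, at 188 against 34.7.

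Neuronal genes in the same 22 nuclei were detected at varied levels against the rest. Grik4 stood at 769 against 738 CPM and Slc17a7 at 251 against 234, while Kcnq5 was lower at 1480 against 2213 and the rule marker Hs3st4 higher at 951 against 612. The 14 CA3 genes outside the rule summed to 4640 against 4787 CPM and the CA1 list to 325 against 595. C1qa stood at 22.8 against 42.9 CPM, Cx3cr1 had no UMI, and the microglia list summed to 165 against 138. The oligodendrocyte list stood at 251 against 131 and the astrocyte list at 171 against 94.5. Median UMIs were 6519.5 and 8119. Without the 22, the interferon list had 5 of 7 genes past the fold with a median of 1.09, Ifit1 a ratio of 4.93, B2m 1.77 and Bst2 2.48.

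The promoter windows of 11 of these genes, chosen by name, were searched for the interferon-stimulated response element, written as GAAA, any 2 bases and GAAA. Ifi203, Ccnd3, Mndal, Robo3 and Tor3a, also high in the 22 nuclei, were not searched, so the count below is not a share of the whole set. RefSeq's table held windows for 8 of 11 genes asked for, and 5 of these (Ifit1, Isg15, Bst2, Eif2ak2 and Stat2) hold it on either strand, against 1131 of all 32851 windows (3.44%). Ifit1 (chr19:34640639-34640938, plus strand) holds 2 and Isg15 (chr4:156200769-156201068, minus strand) 3, and both are printed because their RNA was high in the 22 nuclei, in build GRCm38.p6 with the element in capitals.
Ifit1: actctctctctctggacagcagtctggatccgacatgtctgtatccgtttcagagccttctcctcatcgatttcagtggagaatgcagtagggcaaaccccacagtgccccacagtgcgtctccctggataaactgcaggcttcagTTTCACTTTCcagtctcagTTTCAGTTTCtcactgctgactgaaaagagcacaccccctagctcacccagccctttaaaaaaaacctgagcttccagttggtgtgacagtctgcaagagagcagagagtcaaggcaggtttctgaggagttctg
Isg15: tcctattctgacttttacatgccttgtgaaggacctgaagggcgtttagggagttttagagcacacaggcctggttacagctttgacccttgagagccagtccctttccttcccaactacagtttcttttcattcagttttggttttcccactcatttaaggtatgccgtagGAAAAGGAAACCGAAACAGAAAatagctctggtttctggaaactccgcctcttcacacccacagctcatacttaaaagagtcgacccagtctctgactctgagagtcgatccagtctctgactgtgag

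Set against WT-naive in place of WT-CFC, the KO-CFC-labelled library had 2281 of 15301 genes (14.9%) past 1.5-fold higher and 863 (5.64%) lower. Scaled by the median gene, 1755 were higher and 1181 lower. The comparison shares a library with each of those above, so it is no separate support. Ttn (-2.45), Sema5b (-2.02) and St8sia6 (-1.74) were again among the lowest and Ifit1 among the highest. Bc1 stood at 136, 67.0 and 26.1 CPM in WT-naive, WT-CFC and the KO-CFC-labelled library, and Wdr72 at 35.1, 18.1 and 6.53. Acp1 stood at 134, 304 and 561 CPM in the same order. These genes were therefore apart in all 3 pairs of libraries. They were not particular to CA3 nuclei. Between the KO-CFC-labelled library and WT-naive, granule and mossy nuclei had -1.87 and -2.26 for Bc1, -1.97 and -2.35 for Wdr72, and 1.64 and 2.14 for Acp1.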

How the data were processed

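Nuclei from frozen dentate gyrus were profiled with 10x Genomics 3' v3 chemistry, per the labels' protocols, in 3 libraries of 1 per group. The authors deposited raw UMI counts per gene and barcode, processed with Cell Ranger 8.0.1 and Seurat 5.4.0 on GRCm39 (mm39), per the submitters' processing notes; their annotation release: not given in the sources used here. From these counts, nuclei were gated with fixed UMI, mitochondrial and marker limits. Counts were summed per library and class and given as CPM with exact Poisson 95% intervals; log2 ratios add 0.5 counts to each sum and carry an exact conditional binomial interval. A gene counted in a comparison with 100 or more counts over both libraries and was called past 1.5-fold; classes were compared at 2-fold. The CA2 gate held too few nuclei to serve as a class, which departs from the planned design. Library totals were 64716053, 68519389 and 38045642 UMIs for WT-naive, WT-CFC and the KO-CFC-labelled library. No doublet caller was run, and an alternative left out the 8% of CA3 nuclei with most UMIs.

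Named genes were, per comparison, up to 12 with the highest and 12 with the lowest ratio past 1.5-fold and with a CA3 level of at least 25% of that in the highest class of the higher library, and up to 15 per direction against the other classes; unnamed models, mitochondrial, ribosomal, haemoglobin, sex-linked and gating genes were left out. Some genes that this rule or the lists cover are not reported here. Genes of the lists, 42 in all, are named besides, and other genes singled out were chosen after their values were seen. The CA3 markers, gene lists and members were chosen with earlier results of these data known. The ratios were tested on simulated data. Promoter windows come from RefSeq (GRCm38.p6), and no coordinates were converted. Python 3.11.15, numpy 2.4.6, scipy 1.17.1, pandas 2.3.3 and matplotlib 3.10.9 were used.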

Additional observations from a re-analysis of the deposited data

Results flagged for a closer look

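In 10 cases a gene past 1.5-fold in CA3 nuclei lay in the opposite direction, with an interval apart from 0, in granule or mossy nuclei of the same libraries; these differences were not tested. Between WT-CFC and WT-naive, Dusp1, a phosphatase of MAP kinases, had a log2 ratio of -1.07 in CA3 and 1.88 (0.73 to 3.50) in mossy nuclei, and Mybl1 1.08 in CA3 and -0.85 (-1.47 to -0.24) in mossy nuclei. Mybl1 in CA3 was at 0.063 with up to 1 UMI of Prox1, Calb2 and Drd2 allowed. Between the KO-CFC-labelled library and WT-CFC, Cntn6, an axonal contactin, had -0.89 in CA3 and 1.35 (0.62 to 2.14) in granule nuclei, and Grm8 -0.59 and 0.95 (0.57 to 1.33); without nuclei holding glial or interneuron RNA, Cntn6 (-0.20) and Grm8 (-0.26) were under the fold in CA3. Ephb1 had -1.04 in CA3 and 0.71 (0.19 to 1.18) in mossy nuclei, and Wdr88 -1.39 and 2.26 (1.38 to 3.11). Between the KO-CFC-labelled library and WT-naive, Cntn6 had -1.35 in CA3 and 1.11 in granule nuclei, Grm8 -1.12 and 1.93, and Grik3 0.98 and -1.17. Adcyap1, the neuropeptide PACAP, had -0.84 in CA3 and 0.70 in mossy nuclei.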

How the results depend on the processing

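With 1 library per group no library can be left out, and each ratio speaks for its libraries alone. No paired analysis was possible because each group has 1 library. Of the summary values recomputed under 16 settings, 254 stayed close to the reported value and 57 moved. A minimum of 30 counts gave 1079 genes higher and 1398 lower in WT-CFC than in WT-naive, 3471 and 1390 in the KO-CFC-labelled library than in WT-CFC, and 4021 and 1840 than in WT-naive; a minimum of 300 gave 130 and 135, 788 and 336, and 1153 and 390. With nuclei thinned to 2000 UMIs these were 206 and 145, 670 and 378, and 932 and 396, the interferon median was 0.434, and 17 genes stood above and 2 below both other classes. Using the WT libraries only, 126 stood above and 40 below. The number of genes reaching the count minimum changed with the minimum, with thinning and with the libraries used. These counts are therefore not shares of the totals given above, and the interferon median after thinning covers fewer genes. The CA3 share in WT-naive, WT-CFC and the KO-CFC-labelled library was 46.01%, 36.72% and 31.02% from 5000 UMIs, 28.03%, 22.34% and 13.71% from 1000, 36.31% and 29.85% for the WT libraries at a mitochondrial limit of 1%, 29.84%, 23.79% and 12.64% with 4 of 6 markers, 31.42%, 24.66% and 16.79% without the 8% with most UMIs, 30.39%, 23.78% and 14.77% without nuclei holding granule RNA, 31.82% and 25.37% for the WT libraries without those holding Csf2rb2, and 18.97%, 14.02% and 8.168% without those holding glial or interneuron RNA. Allowing 1 UMI of Prox1, Calb2 and Drd2 together, chosen after seeing the data, gave 40.52%, 34.47% and 22.38%, 11 genes below both classes and a cytoplasmic median of 0.843 between the KO-CFC-labelled library and WT-CFC. Without nuclei holding glial or interneuron RNA, 35 genes stood above both classes, 1079 were higher in that library than in WT-CFC and 1422 than in WT-naive, and the medians against WT-CFC were 0.4736 for ribosomal, 0.5033 for cytoplasmic and 0.1893 for glycolysis genes. Without the nuclei with 5 or more Ifit1 UMIs, also chosen later, the interferon median was 1.085. Of 338 ratios recomputed, each of 1 gene in 1 comparison, 83 fell under 1.5-fold in at least 1 setting. The 1 that reversed was Lhfpl3, in the KO-CFC-labelled library against WT-naive after thinning (-0.09593).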
